A study of Mus musculus with 12 samples.

Results

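The PYHIN family is a group of interferon-inducible proteins that pair a pyrin domain, through which they bind other signalling proteins, with a HIN domain, which binds DNA. Aim2, the best known member, gathers the adaptor Pycard and the protease Casp1 into an inflammasome when it meets DNA in the cytosol, and Ifi204 is a mouse DNA sensor that signals through STING to type I interferon. Most of the other mouse genes are named Ifi for their induction by interferon, and the individual roles of several are not settled. The 6 genes described here are Ifi203, Ifi206, Ifi208, Ifi209, Ifi213 and Mndal, taken by symbol from a table of 13780 genes. They were chosen by their levels in the same naïve, media and lactate libraries that are described below. Exact symbols matched for 5 of them. The entry for Ifi203 also carried the name of a second locus, and it was kept because its Ensembl identifier is that of Ifi203. The table held 12 PYHIN genes in all. The other 6 were Aim2, Ifi204, Ifi205, Ifi207, Ifi211 and Ifi214, and Ifi202b was not analysed here.

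The libraries came from splenic CD8+ T cells of C57BL/6J mice aged 8 to 12 weeks, taken by positive selection on magnetic beads, and fell into 3 groups of 4. Naïve cells were frozen right after purification. Media and lactate cells were activated for 72 h with beads carrying antibodies to CD3 and CD28 and with 10 U/ml of IL-2, in plain media or with 40 mM sodium lactate added. The activated libraries came from 5 donor mice, 3 of which supplied cells for each of these conditions, and plain media was the only control, so that lactate, its sodium and the added osmolality cannot be told apart. Libraries held 14726904 to 21478137 counts, and levels are given in CPM, counts relative to library size, scaled by TMM, a correction for library composition.

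Naïve replicate 4 stood apart from the other naïve libraries: Cd8a, a chain of the CD8 co-receptor, was at 388 CPM there and at 849 to 1208 CPM in the other 3. The sum of 6 T cell markers was also lowest there, at 1990.6 CPM, but Trac, 1 of the 6, was at 412 CPM there and at 363 to 454 CPM in the others. Naïve replicate 4 was also the only naïve library with a high library number, 26, beside 7 to 9 for the others. Traits of that sample and of its set of libraries cannot be told apart. Naïve libraries also carried the transcripts of other spleen cells. The summed level of 10 B cell markers was 3834 to 7295 CPM in naïve, 130 to 179 CPM in media and 64.0 to 115 CPM in lactate libraries. For 8 macrophage and neutrophil markers the sum was 518 to 1571 CPM in naïve libraries and at most 1.04 CPM in any activated library, and 6 dendritic cell markers summed to 76.2 to 156 CPM in naïve and at most 4.30 CPM in activated libraries. The sum of 6 red cell markers, mostly globins, spread widely among naïve libraries, from 172 to 6911 CPM, and was at most 6.00 CPM in activated ones. PYHIN genes are expressed in several of these cell types too, and the part that such cells had in the differences between naïve and activated libraries was not tested. Between media and lactate, the B cell sum was lower with lactate and was carried mostly by H2-Ab1 in both groups. The sum of the 6 T cell markers was also lower, at 3095.3 to 3878.5 CPM in media and 2302.6 to 2900.7 CPM with lactate. The summed level of 4 CD4+ T cell markers was 48.0 to 60.7 CPM in media and 83.7 to 96.6 CPM with lactate, carried mostly by Zbtb7b. That of 3 NK cell markers was 3.40 to 6.58 and 9.33 to 31.4 CPM, carried mostly by Eomes. The part of cell makeup in the lactate difference was not tested.

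The family lies in 1 cluster on chromosome 1. In the GENCODE annotation of GRCm38, its 13 protein-coding genes span 173350879 to 174031810, a stretch of 681 kb that opens with Aim2 and closes with Ifi205. Ifi206 (173468485 to 173491041), Ifi213 (173566283 to 173599274), Mndal (173849126 to 173942491) and Ifi203 (173920407 to 173942672) are read from the minus strand, and Ifi209 (173630917 to 173647928) and Ifi208 (173673675 to 173698395) from the plus strand. As annotated, Mndal runs through Ifi203 on the same strand, and 4.27% of its exon bases and 0.552% of those of Ifi203 overlap another gene.

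**Figure D1:**
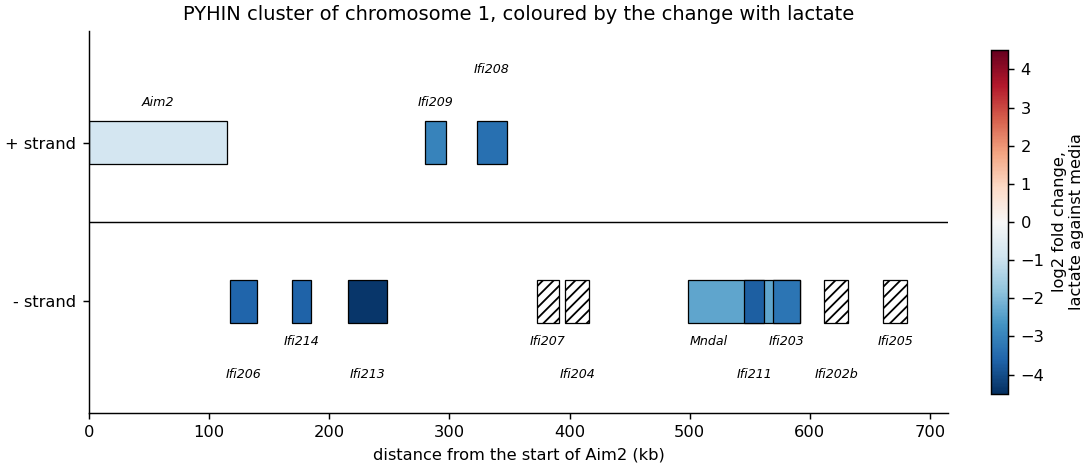
Map of the PYHIN cluster. The horizontal axis is the distance from the annotated start of Aim2 in kb, boxes above and below the line are genes on the plus and minus strand, and the color is the log2 fold change of lactate against media. Hatched boxes are Ifi204, Ifi205 and Ifi207, with fewer than 20 counts in both groups, and Ifi202b, which was not analysed. Every colored gene is on the blue side, from -0.82 for Aim2 to -4.39 for Ifi213.

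The cluster arose from copies of related genes, and the sequences before the gene starts show this. Genes induced by type I interferon often carry an interferon-stimulated response element near their start, to which complexes with IRF factors bind. The core of that element was searched as GAAANNGAAA on both strands in the RefSeq promoter windows (GRCm38.p6), which run from 250 bases before to 50 bases after each start. It occurred in 3.443% of 32851 windows of mouse genes, and in at least 1 window of 5 of the 6 genes, all but Ifi209. The following stretches of 30 bases are shown because their cores are nearly the same letters. Each runs 5′ to 3′ on the strand of the gene, with the core, or for Ifi209 the nearest match to it, in capitals. Ifi214, which is not among the 6, stands beside its close relative Ifi209.

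Ifi206: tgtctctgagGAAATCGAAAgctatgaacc
Ifi213: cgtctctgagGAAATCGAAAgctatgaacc
Ifi208: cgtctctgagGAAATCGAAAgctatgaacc
Ifi203: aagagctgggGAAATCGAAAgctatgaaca
Mndal: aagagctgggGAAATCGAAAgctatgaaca
Ifi209: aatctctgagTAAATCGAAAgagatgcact
Ifi214: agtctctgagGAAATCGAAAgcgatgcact

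These lie at chr1:173491339-173491368 for Ifi206, chr1:173599326-173599355 for Ifi213, chr1:173942508-173942537 for Ifi203, chr1:173880204-173880233 for Mndal and chr1:173536017-173536046 for Ifi214, all on the minus strand, and at chr1:173673597-173673626 for Ifi208 and chr1:173630770-173630799 for Ifi209, on the plus strand. The letters GAAATCGAAA were picked as the commonest form of the core in the windows of the PYHIN genes themselves. Their count in the family is therefore not independent of that choice. These exact letters were present in 0.0487% of all windows, 16 in number, of which 7 belong to PYHIN genes. The stretch of Ifi209 differs from them by G1T, counted from 1 at the 5′ end of the core. Aim2 had no core in its window, which lies before a start at 173420604, inside the annotated gene. Outside the 6, Ifi207 also had the exact letters, and Ifi205 and Ifi211 had GAAATTGAAA, so the core is not particular to the 6. A match or its absence describes these letters and these windows only.

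The wider sequence falls into pairs and triplets. Over the 250 bases before the start, aligned with free ends, Ifi206, Ifi208 and Ifi213 were identical at 98.6% to 99.6% of aligned positions, Ifi209 and Ifi214 at 94.8%, and Ifi203 and the upstream window of Mndal at 93.6%. Between these sets identity was 56.1% to 67.6%. The triplet is shown by Ifi213 (chr1:173599273-173599522, minus strand) and Ifi208 (chr1:173673415-173673664, plus strand), which are transcribed in opposite directions, with the core in capitals. Ifi209 (chr1:173630609-173630858, plus strand), in which no core was found, is shown for contrast.

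Ifi213: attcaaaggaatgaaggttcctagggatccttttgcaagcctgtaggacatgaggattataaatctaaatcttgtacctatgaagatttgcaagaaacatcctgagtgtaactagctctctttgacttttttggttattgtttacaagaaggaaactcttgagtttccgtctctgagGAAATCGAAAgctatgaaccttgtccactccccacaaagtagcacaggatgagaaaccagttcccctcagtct
Ifi208: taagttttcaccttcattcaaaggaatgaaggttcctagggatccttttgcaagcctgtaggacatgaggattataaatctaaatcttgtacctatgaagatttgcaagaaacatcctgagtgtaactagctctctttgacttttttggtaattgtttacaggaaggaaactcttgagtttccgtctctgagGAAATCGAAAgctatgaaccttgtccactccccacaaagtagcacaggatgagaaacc
Ifi209: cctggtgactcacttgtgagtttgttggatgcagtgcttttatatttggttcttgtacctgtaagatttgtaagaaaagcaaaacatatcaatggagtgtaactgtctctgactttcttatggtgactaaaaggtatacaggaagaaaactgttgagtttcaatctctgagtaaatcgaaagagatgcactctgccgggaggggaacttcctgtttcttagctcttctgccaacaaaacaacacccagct

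The same kinship reaches into the transcripts, which bears on the counts because the authors counted uniquely mapped reads. Of all stretches of 71 bases in its annotated transcripts, Ifi209 shared 24.4% with another gene, in each case Ifi214. The share was 18.5% for Ifi206, 13.0% for Ifi208 and 9.02% for Ifi213, mostly with each other, 12.2% for Mndal and 6.49% for Ifi203. For Aim2 it was 0. Reads that fall wholly in such stretches could not be assigned, so the levels of these genes may be understated, and small differences between close copies are uncertain.

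All 6 genes were present in naïve cells, were lower 72 h after activation in plain media, and were lower again when sodium lactate was present. Their summed level was 651 to 1561 CPM in naïve, 175 to 502 CPM in media and 36.6 to 43.9 CPM in lactate libraries. On average, media cells thus had 24.4% and lactate cells 3.39% of the naïve sum. In these bulk samples, fewer cells that express a gene and less RNA per cell cannot be told apart.

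**Figure D2:**
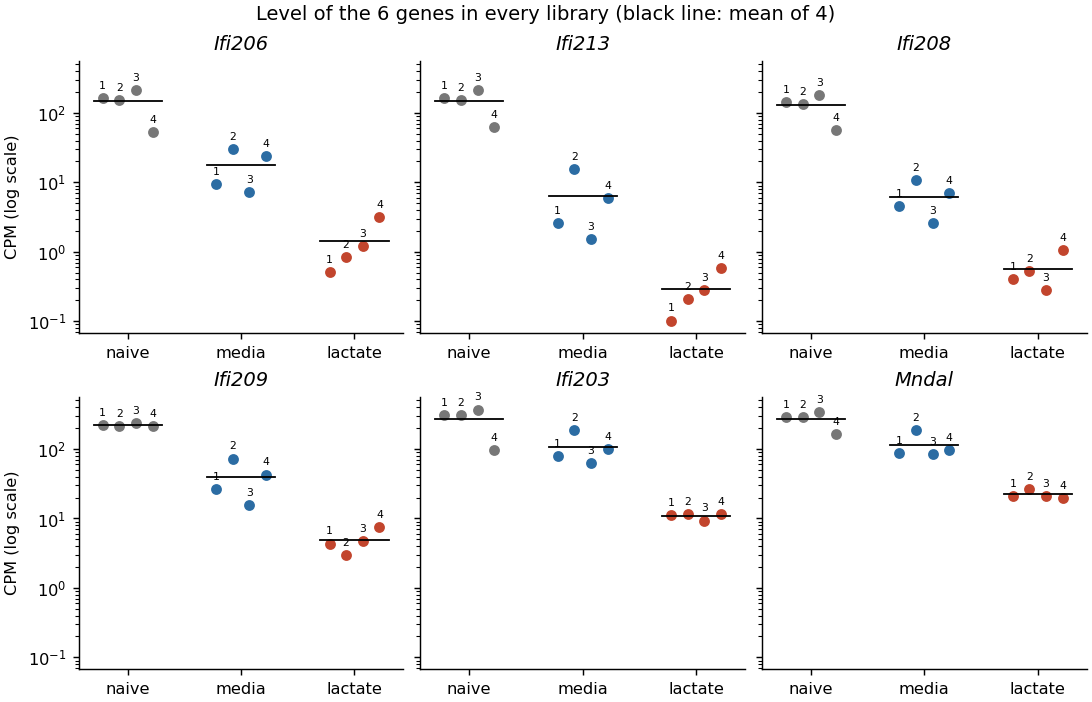
Levels of the 6 PYHIN genes in every library. The vertical axis is CPM on a log scale, points are libraries numbered by replicate, and black lines are means of 4. In each gene the 4 lactate libraries sit below all 4 media libraries, and naïve replicate 4 is the lowest naïve library for 5 genes but not for Ifi209.

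Ifi213 had the steepest course. Its level was 162, 155, 217 and 63.5 CPM in naïve replicates 1 to 4, and 2.59, 15.6, 1.50 and 5.89 CPM in media replicates 1 to 4. With lactate it was 0.102, 0.210, 0.283 and 0.578 CPM, which stand for 2, 4, 4 and 12 reads. The 3 groups did not overlap, and lactate libraries were near the limit of what this depth can count. The log2 fold change was -4.55 ± 0.63 (SE, n = 4 per group) from naïve to media and -4.39 ± 0.87 from media to lactate. Media replicate 2 carried much of the media level: without it the lactate difference was -3.43, and without lactate replicate 4 it was -5.01.

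Ifi206, a close copy of Ifi213 in its upstream sequence, was at 166, 152, 215 and 53.0 CPM in naïve libraries. In media it was at 9.34, 30.2, 7.25 and 24.3 CPM, and in lactate at 0.512, 0.838, 1.20 and 3.13 CPM. Again no group overlapped another, with the highest lactate library below the lowest media library. The log2 fold change was -3.05 ± 0.56 from naïve to media and -3.61 ± 0.65 from media to lactate, the latter -4.41 without lactate replicate 4.

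Ifi208, the third of the triplet, lies on the other strand and showed the same order of groups. Its level was 143, 134, 182 and 55.9 CPM in naïve, 4.62, 10.7, 2.62 and 7.02 CPM in media, and 0.410, 0.524, 0.283 and 1.06 CPM in lactate libraries. The log2 fold change was -4.37 ± 0.46 from naïve to media and -3.38 ± 0.56 from media to lactate. Media cells were left with 4.86% of the naïve mean and lactate cells with 0.442%.

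Ifi209, also known as Pyhin1, was the member with the most even naïve level. It was at 224, 217, 236 and 217 CPM in the naïve libraries, so that naïve replicate 4 did not differ from the others. Media libraries held 26.3, 73.0, 15.6 and 42.9 CPM and lactate libraries 4.36, 2.99, 4.74 and 7.52 CPM. The groups did not overlap. The log2 fold change was -2.50 ± 0.39 from naïve to media and -3.00 ± 0.42 from media to lactate.

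Ifi203 and Mndal, neighbors at the far end of the cluster, kept more of their level through activation. Ifi203 was at 309, 312, 370 and 96.7 CPM in naïve and at 79.3, 187, 63.5 and 98.5 CPM in media libraries, and these 2 groups overlapped: media replicates 2 and 4 were above naïve replicate 4. Lactate libraries were tight, at 11.3, 11.4, 9.34 and 11.7 CPM, and all far below media. The log2 fold change was -3.29 ± 0.42 from media to lactate and -1.34 ± 0.38 from naïve to media. The latter is weakly held. Its adjusted p, from edgeR's quasi-likelihood test over all genes, was 0.00737 against a threshold of 0.01 and rose above it in 12 of 25 other settings, among them leaving out naïve replicate 1, 2 or 3, media replicate 1, 3 or 4, or lactate replicate 1 or 2. Among the libraries with high library numbers, a set that held 1 naïve and 1 media library, the difference in log2 CPM was 0.03, and among those with low numbers it was -1.75.

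Mndal, the myeloid nuclear differentiation antigen-like gene, was the most abundant of the 6 with lactate. Its level was 288, 285, 341 and 165 CPM in naïve and 88.8, 185, 84.1 and 95.7 CPM in media libraries, where media replicate 2 was above naïve replicate 4. With lactate it was 21.3, 26.7, 20.8 and 19.9 CPM, in a range of 1.34-fold from lowest to highest. The log2 fold change was -1.25 ± 0.27 from naïve to media and -2.36 ± 0.28 from media to lactate.

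Because these genes were picked with their values in the same libraries known, the following counts describe them and support nothing further. From media to lactate, 6 of 6 passed the threshold as lower, where 11.1% of all 13767 tested genes did, and for 6 of 6 the groups did not overlap in that direction, as for 21.5% of all genes. From naïve to media, 6 of 6 passed as lower against 29.0% of all genes, and groups did not overlap for 4 of 6 against 30.5%, or for 6 of 6 against 36.1% without naïve replicate 4. Between naïve and lactate directly, 6 of 6 passed as lower against 32.0% of all genes and groups did not overlap for 6 of 6 against 32.8%, with log2 fold changes from -3.60 for Mndal to -8.93 for Ifi213. Genes that were lower at both steps made up 3.20% of those tested. These comparisons share libraries: the media libraries enter both steps. Ranked from the lowest log2 fold change of lactate against media, Ifi213 was at place 13, Ifi206 at 36, Ifi208 at 52, Ifi203 at 56, Ifi209 at 78 and Mndal at 168.

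**Figure D3:**
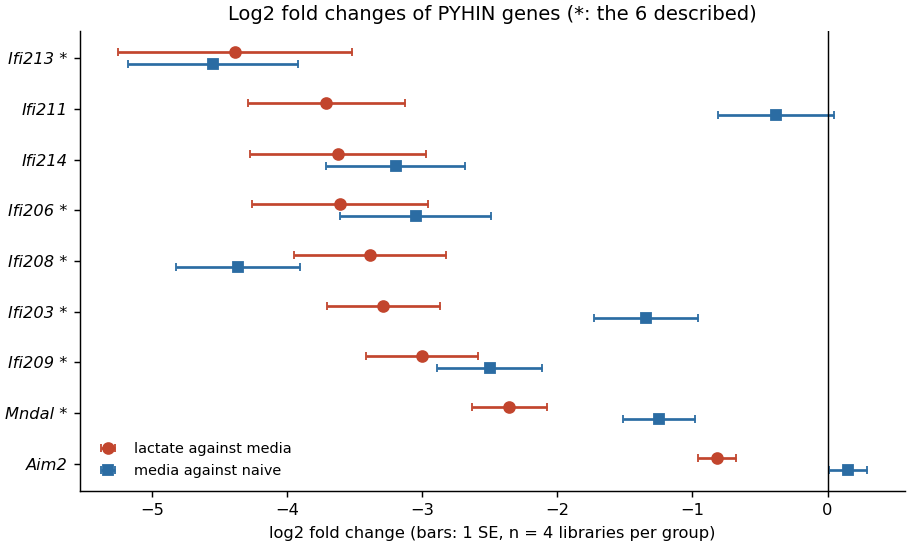
Log2 fold changes of 9 PYHIN genes with at least 20 counts in media or lactate libraries. Circles are lactate against media and squares media against naïve, with bars of 1 SE (4 libraries per group), and asterisks mark the 6 genes described. Circles run from -4.39 (Ifi213) to -0.82 (Aim2), and the squares of Ifi211 and Aim2 lie near 0.

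The lactate difference was also read within donors, since 3 mice gave a library of each kind. In each of them all 6 genes were lower with lactate, which already follows from groups that did not overlap and adds no further support. The ratio of media to lactate CPM was 7.18, 10.2 and 25.3 for Ifi213 and 3.15, 4.17 and 4.80 for Mndal. With the donor as a block, the adjusted p (edgeR) was 0.0103 for Ifi208 and 0.0104 for Ifi213, above the threshold of 0.01, with log2 fold changes of -2.83 and -3.47. That left 4 of the 6 called, where 992 of all 13767 tested genes were called, beside 3451 without the block. Over the 6 genes, the difference in log2 CPM was -4.06 to -2.22 among libraries with low library numbers and -3.56 to -2.23 among those with high numbers. The high-number values set media replicate 4 alone against lactate replicates 3 and 4. Media replicate 4 and lactate replicate 4 came from the same donor. What the library numbers stand for is not given in the sources used here.

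**Figure D4:**
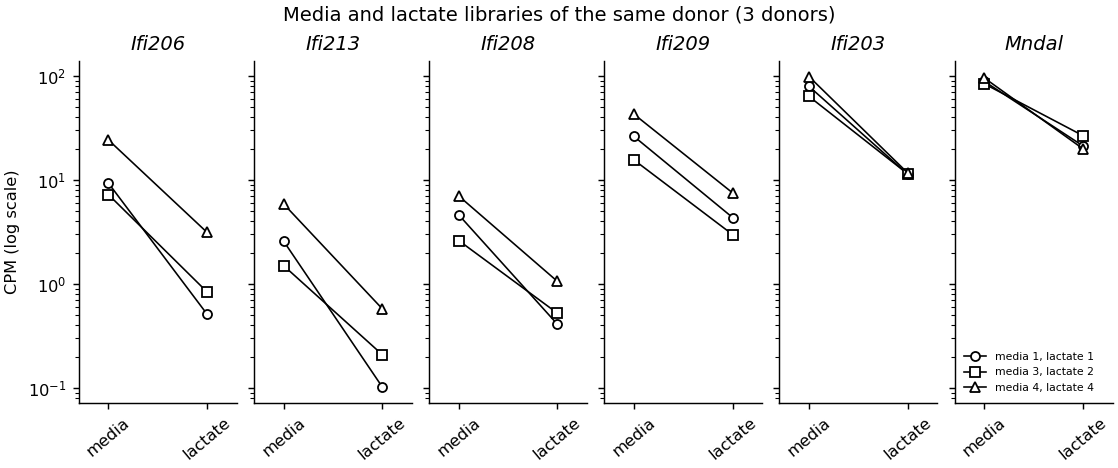
Media and lactate libraries of the same donor mouse for the 6 PYHIN genes. The vertical axis is CPM on a log scale, and each line joins the libraries of 1 of 3 donors. Every line falls, as groups without overlap require. For Ifi203 the lines meet at lactate levels of 11.3 to 11.7 CPM.

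The makeup of the 6 changed with their level. Per length of transcript, in TPM, the order of mean levels in naïve cells was Mndal (255 TPM), Ifi209 (215), Ifi206 (163), Ifi203 (137), Ifi208 (82.9) and Ifi213 (74.0). Every gene overlapped its neighbor in that order across the 4 libraries. In lactate cells the order was Mndal (19.5 TPM), Ifi203 (5.16), Ifi209 (4.33), Ifi206 (1.44), Ifi208 (0.340) and Ifi213 (0.133), where Mndal stood clear of all others and the rest overlapped their neighbors. In summed TPM, Mndal made up 27.7% of the 6 in naïve, 49.1% in media and 63.2% in lactate libraries on average, and Ifi213 made up 7.70%, 1.17% and 0.427%.

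The same libraries were often the highest. Media replicate 2 had the highest media level of all 6 genes, from 1.24 times the next library for Ifi206 to 2.65 times for Ifi213. Lactate replicate 4 was the highest lactate library for Ifi206, Ifi213, Ifi208 and Ifi209, at 2.60, 2.04, 2.02 and 1.59 times the next. For Ifi203 it was at 1.02 times the next library, and for Mndal it was the lowest.

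The other 6 PYHIN genes did not all follow. Aim2, the inflammasome sensor, was at 60.4, 59.6, 52.2 and 88.0 CPM in naïve, 70.3, 79.1, 70.8 and 68.8 CPM in media and 45.7, 41.0, 38.8 and 38.3 CPM in lactate libraries. Lactate libraries were thus below all others, while naïve and media overlapped. It fell by 0.82 ± 0.14 on the log2 scale with lactate (adjusted p = 0.000880, edgeR), a fold of 1.76, and its log2 fold change from naïve to media was 0.15 ± 0.14 (adjusted p = 0.358). With the donor block its lactate difference was -0.75 at an adjusted p of 0.0302, above the threshold. Without naïve replicate 4 the naïve to media difference was 0.33 at an adjusted p of 0.00561, under it.

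Ifi214, which shares stretches with Ifi209, was at 38.2, 41.2, 41.7 and 41.2 CPM in naïve, 2.36, 11.2, 1.56 and 2.57 CPM in media, and 0.256, 0.157, 0.354 and 0.626 CPM in lactate libraries. It fell at both steps, with log2 fold changes of -3.20 ± 0.52 and then -3.62 ± 0.65 (adjusted p = 0.000129 and 0.00104, edgeR). Without media replicate 2 the steps were -4.23 and -2.60. Ifi211, of which 64.9% of stretches are shared with relatives, was low throughout, at 0.504 to 2.94 CPM in naïve, 1.17 to 1.71 CPM in media and 0.0524 to 0.154 CPM in lactate libraries. It fell with lactate (-3.71 ± 0.58, adjusted p = 0.000441, edgeR), the change with activation was not detectable (-0.38 ± 0.43, adjusted p = 0.450), and with the donor block the lactate difference had an adjusted p of 0.0149.

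Ifi204, Ifi205 and Ifi207 were confined almost wholly to the naïve libraries, at 7.45 to 23.2, 0.952 to 10.2 and 7.92 to 34.7 CPM. Media libraries held 6, 1 and 13 reads of them in all and lactate libraries 5, 0 and 2 reads, so no fold between media and lactate is given. Macrophages are known to express Ifi204 and Ifi205 strongly, and the macrophage markers had the same split between naïve and activated libraries. The part of those cells was not tested. For Ifi205, 0 reads with lactate allow a mean of up to 0.0408 CPM at 3 reads over the group, which puts it at least 163-fold lower than in naïve libraries, for counting error only.

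Genes next to the cluster were compared as well. Of the 5 measured neighbors on either side, the lactate difference passed the threshold for Fh1, the fumarate hydratase of the TCA cycle, which was higher (0.57 ± 0.10, adjusted p = 0.000702, edgeR), and for no other. Tagln2 and Dusp23, on the side of Aim2, differed by 0.19 ± 0.13 and -0.19 ± 0.32 on the log2 scale (edgeR, adjusted p = 0.274 and 0.681).

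The wider pathway in which PYHIN proteins work was compared next. Of 21 tested genes of cytosolic DNA sensing and STING signalling, 5 passed as higher and 5 as lower in lactate than in media, and the list median was 0.02 in log2 fold change, beside -0.0016 over all tested genes. Of all tested genes, 13.9% passed as higher and 11.1% as lower with lactate, and 28.5% and 29.0% from naïve to media. Tmem173, which encodes STING itself, was at 91.6 to 111 CPM in media and 90.3 to 108 CPM with lactate, which is -0.01 ± 0.13 on the log2 scale (edgeR, adjusted p = 0.977). Cgas, the main cytosolic DNA sensor upstream of STING, was at 9.00 to 11.2 CPM in media and 6.87 to 16.2 CPM with lactate, and its 0.41 ± 0.23 did not pass (edgeR, adjusted p = 0.168). The lowest of the called genes was Ikbke, a kinase of IRF factors (-1.28 ± 0.18, adjusted p = 0.000249), and the highest was Xrcc5, a subunit of the Ku complex of DNA repair (0.53 ± 0.11, adjusted p = 0.00222). From naïve to media, 5 of the 21 were higher and 7 lower, from Rnaseh2b, an RNase H2 subunit (1.62 ± 0.10), to Tlr9, the endosomal DNA receptor known from B cells and dendritic cells (-5.80 ± 0.38).

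Of 11 inflammasome genes, 2 passed with lactate, both lower, which is 18.2% beside 11.1% of all tested genes, and the median was -0.82. They were Aim2 and Casp1, the protease that acts on interleukin-1β (-0.99 ± 0.26, adjusted p = 0.00866, edgeR). The list median is the value of Aim2 itself, and Il1b, Nlrp1b, Nlrp3 and Nlrc4 were below 1 CPM in every media and lactate library. Pycard, the adaptor between Aim2 and Casp1, did not pass, at -0.22 ± 0.29 (edgeR, adjusted p = 0.583). From naïve to media, 1 was higher, Casp4 (0.74 ± 0.19), and 6 were lower, beside 28.5% and 29.0% of all tested genes, the lowest being Il1b (-11.46 ± 0.73), a myeloid cytokine that fell along with the macrophage markers.

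**Figure D5:**
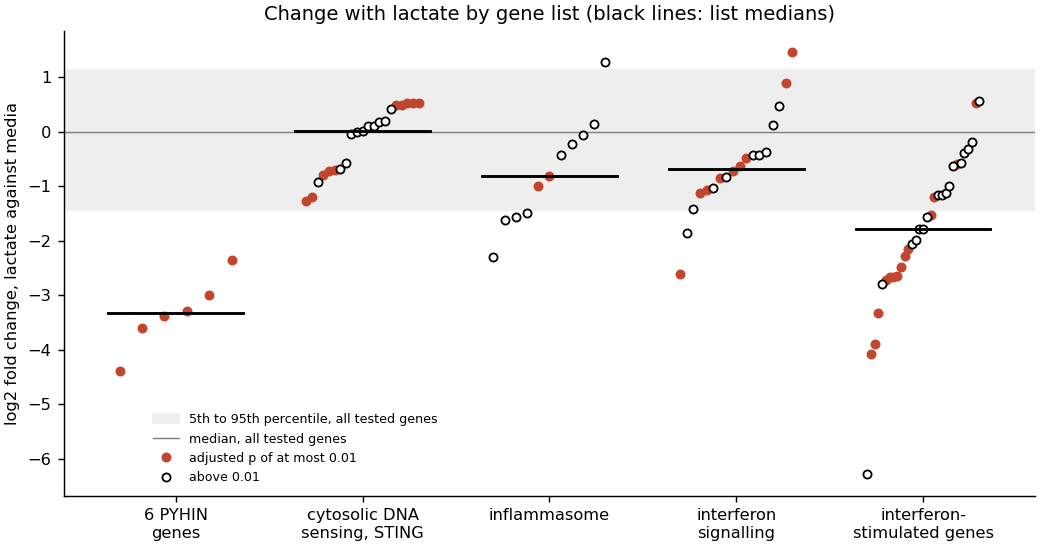
Log2 fold changes of lactate against media by gene list. Each point is a gene, filled where the adjusted p was at most 0.01, black lines are list medians, and the grey band spans the 5th to the 95th percentile of all tested genes, -1.43 to 1.14. The 6 PYHIN genes, which were picked with these values known, lie wholly below the band. Medians are -0.82 for the inflammasome, -0.68 for interferon signalling and -1.78 for interferon-stimulated genes. The inflammasome median is the value of Aim2, and that of interferon-stimulated genes is the value of Ifit3b, a gene with few reads in both groups.

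Of 18 genes of interferon signalling, 2 passed as higher and 7 as lower with lactate, beside 13.9% and 11.1% of all tested genes, around a median of -0.68. Irf7, a factor that amplifies the type I interferon response, was at 134, 112, 140 and 46.4 CPM in naïve, 20.6, 34.9, 14.6 and 22.9 CPM in media and 2.31, 3.20, 4.10 and 5.49 CPM in lactate libraries. Its groups did not overlap, naïve replicate 4 was again the lowest naïve and media replicate 2 the highest media library, and it was the lowest of the called genes (-2.62 ± 0.39, adjusted p = 0.000317, edgeR). Ifnar1, a chain of the type I interferon receptor, was also lower (-1.08 ± 0.15, adjusted p = 0.000247), as was Stat2 (-0.73 ± 0.14, adjusted p = 0.00135), while Irf9, a DNA-binding factor of the response to type I interferon, did not pass (-0.83 ± 0.26, adjusted p = 0.0231). Socs1, an inhibitor of cytokine receptor signalling, was the highest (1.45 ± 0.33, adjusted p = 0.00444), and Irf8 was the other gene that rose (0.89 ± 0.13, adjusted p = 0.000317). Ifng, the gene of interferon-γ, was at 1.53 to 14.5 CPM in media and 40.6 to 213 CPM with lactate.

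Of 31 tested interferon-stimulated genes outside the family, 13 passed as lower with lactate, 1 as higher and 17 did not pass, around a median of -1.78, where 11.1% of all tested genes passed as lower and 13.9% as higher. The lowest that passed was Oas1a, an enzyme of the response to viral RNA (-4.08 ± 0.75, adjusted p = 0.00117, edgeR), and the one that was higher was Ifi35 (0.52 ± 0.11, adjusted p = 0.00298). From naïve to media, 3 were higher and 22 lower, where 28.5% and 29.0% of all tested genes were. Ifi27l2a was highest in that step (1.58 ± 0.26) and fell with lactate (-2.73 ± 0.27, adjusted p = 5.56e-05), a course unlike that of the 6 PYHIN genes, and Ifit3 was lowest (-4.99 ± 0.66), and its lactate difference of -2.06 ± 0.89 did not pass (adjusted p = 0.0831, edgeR).

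The motif was then read across other genes. Over 385 tested genes outside the family that had the response element core in a promoter window, 12.2% passed as higher and 15.8% as lower with lactate, and the median was -0.02 on the log2 scale. Over 9893 tested genes with any promoter window, the shares were 15.4% and 11.7%.

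Last, genes were ranked by the likeness of their course to that of the 6. Over the 12 libraries, the mean of the 6 genes on the log2 scale, each centered on its own mean, was correlated with each of 10304 genes outside the family with a mean of at least 5 CPM. The 5 highest Pearson coefficients were those of Cracr2a (0.994), a calcium sensor of T cells, Slc12a9 (0.994), Irf7 (0.993), Gm30054 (0.993) and Runx1 (0.993), a transcription factor of T cell development. All 12 points share the 3 groups, so the coefficients mainly express the order of naïve, media and lactate. Runx1 was at 40.1 to 60.3 CPM in naïve, 10.5 to 18.6 CPM in media and 2.82 to 3.89 CPM in lactate libraries, in 3 groups without overlap.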

How the data were processed

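RNA was sequenced from naïve, media and lactate CD8+ T cells, 4 libraries per group. Per the authors' methods and labels, reads of 71 bases were demultiplexed with bcl2fastq 2.20.0.422 and aligned to GRCm38 with STAR 2.7.5b, PCR duplicates were removed, and uniquely mapped reads were counted over Ensembl exons with featureCounts. The deposited values are raw counts per gene. The strand setting is not given in the sources used here.

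Of 13780 genes, 13767 reached 1 CPM in a minimum of 3 libraries and were scaled by TMM and fitted in 1 model of 3 groups with edgeR 4.0.16 (quasi-likelihood, R 4.3.3), two-sided, with Benjamini-Hochberg adjustment over all tested genes. A gene was called at an adjusted p of at most 0.01. limma 3.58.1 voom and DESeq2 1.42.0 were alternatives. The scripts were tested on simulated data. TPM used the gene lengths in the table.

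The 6 genes, the lists and the motifs were chosen with earlier results of these data known. Beside the 6 genes and the other PYHIN genes, the text names the extreme called genes of each list, genes that the pathway's description needs, and the 5 genes most alike in course. From the whole lists, a few more (Stat2, Ifnar1, Irf8, Xrcc5 and the named cluster neighbors) were named after their values were seen.

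Replicate numbers in the titles do not all follow the donors. Deviations of media and lactate libraries with the same title number correlated at 0.374, 0.297, 0.0038 and 0.553. Those of the 3 donors with both conditions correlated at 0.374, 0.211 and 0.553. Media replicate 4 and lactate replicate 3, from different donors, reached 0.3715, so these values do not decide between the pairings. The donor pairing was taken from the sample descriptions, and the main fit had no donor or replicate block. Naïve libraries were not tied to these donors. Donors were read from the sample descriptions, where the same mouse number under low and high library numbers was taken as 2 mice. The labels of the activated samples name CD3 and CD8 beads and a vehicle, and the methods name CD3 and CD28 and media. The authors state that each condition had RNA from 4 separate mice. A result of 1 listed gene is not reported here.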

Additional observations from a re-analysis of the deposited data

Results flagged for a closer look

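Over 33 groups of 4 libraries of PYHIN genes, 5 values, in 4 libraries, stood farther from the rest of their group than Dixon's criterion allows, and chance alone gives about 1 in 20 groups. In media replicate 2, Mndal was at 185.5 CPM with the other media libraries at 84.1 to 95.7 CPM, and Ifi214 was at 11.19 CPM with the others at 1.56 to 2.57 CPM. In lactate replicate 3, Ifi203 was at 9.338 CPM, below the 11.3 to 11.7 CPM of the other lactate libraries. In naïve replicate 1, Ifi214 was at 38.21 CPM, below the 41.2 to 41.7 CPM of the other naïve libraries. In media replicate 4, Ifi207 was at 0.6897 CPM, with 0 to 0.112 CPM in the others.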

How the results depend on the processing

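From media to lactate, 6 of the 6 genes were called. The count was 3 with limma voom, where Ifi206, Ifi208 and Ifi213 were not called, and 2 in a test against a 2-fold change, where Ifi203 and Mndal were. Over all tested genes these called 3485 and 48, beside 3451. The cause was not tested. With the donor as a replicate block it was 4, and 992 genes were called in all. With the title number as a replicate block it was 6, and 3256 genes were called in all. A minimum of 10 counts in every library left 4 of the 6 to test, and 4 were called, beside 3289 genes in all. With each library left out in turn the count stayed at 6, and 2260 to 4830 genes were called in all.

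From naïve to media the count of 6 became 4 in the test against a 2-fold change, where Ifi203 and Mndal were not called and 3227 genes were called in all beside 7915. It was 5 or 6 when 1 library was left out, Ifi203 being the gene concerned, and 7158 to 8469 genes were then called in all. Groups did not overlap for 4 genes in that comparison, for 5 without media replicate 2 and for 6 without naïve replicate 4, beside 30.5%, 32.8% and 36.1% of all tested genes. Without media replicate 2, the log2 fold change from naïve to media went from -4.55 to -5.51 for Ifi213. Without lactate replicate 4, that from naïve to lactate went from -6.66 to -7.52 for Ifi206 and from -8.93 to -9.63 for Ifi213. The alternatives that gave a value were 25 or 26 per gene for lactate against media and 24 or 25 for the others. Over these, no log2 fold change of a PYHIN gene changed its sign. Ifi204, Ifi205 and Ifi207 were not examined for lactate against media. A split by library number was not among these alternatives. In that split, the naïve to media difference in log2 CPM was 0.36 with low and -0.35 with high numbers for Aim2. It was -0.70 and 1.55 for Ifi211, and -1.75 and 0.03 for Ifi203. The high numbers held 1 naïve and 1 media library.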
